A study of Homo sapiens with 2 samples.

Results

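The 10 mature microRNAs (miRNAs) described here come from the miR-10, miR-99/100 and miR-125 genes: hsa-miR-10a-5p, hsa-miR-10a-3p, hsa-miR-10b-5p, hsa-miR-99a-5p, hsa-miR-99b-5p, hsa-miR-100-5p, hsa-miR-100-3p, hsa-miR-125a-5p, hsa-miR-125a-3p and hsa-miR-125b-5p. They are a named set, chosen with earlier results of these data known. The set leaves out 4 other listed 3p products of these genes, described further on as neighbours. The 10 members were taken from 859 listed mature miRNAs among 5475 small RNA features. Small RNAs were sequenced from A549, a human lung adenocarcinoma cell line of epithelial origin, after 24 h under normoxia (20% oxygen) or hypoxia (1.2% oxygen), both in DMEM with FCS and without any genetic change named in the labels. Each condition had 1 library, so no difference between conditions has a replicate check, no p-value is given, and every interval covers counting error only. PCR reads without molecular identifiers are not independent molecules, and the intervals do not cover that either.

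A miRNA is cut from a hairpin precursor, whose arms give a 5p and a 3p product. Usually one of them, the guide, is loaded into an Argonaute protein and the other is degraded. The guide finds messenger RNAs mainly through its seed, bases 2 to 8. The miR-10 genes lie within the HOX clusters, which pattern the body axis, and miR-99/100 and miR-125 genes lie beside let-7 genes in conserved clusters. miR-99/100 is known for targeting mTOR, and miR-125 is the homolog of lin-4, the worm miRNA known for timing development.

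The mature sequences are shown because seeds divide the guides into 3 groups and because some members are so alike that their counts are hard to keep apart. Capitals mark the seed. The sequences come from RefSeq (GRCh38.p14), where 9 of the 10 members matched by name, and hsa-miR-10b-5p is named only.
hsa-miR-10a-5p: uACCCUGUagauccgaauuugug
hsa-miR-99a-5p: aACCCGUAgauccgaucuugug
hsa-miR-99b-5p: cACCCGUAgaaccgaccuugcg
hsa-miR-100-5p: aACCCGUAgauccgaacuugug
hsa-miR-125a-5p: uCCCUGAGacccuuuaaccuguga
hsa-miR-125b-5p: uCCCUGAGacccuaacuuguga
hsa-miR-10a-3p: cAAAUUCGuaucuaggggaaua
hsa-miR-100-3p: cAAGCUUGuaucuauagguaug
hsa-miR-125a-3p: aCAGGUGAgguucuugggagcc

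The seed ACCCUGU was shared by miR-10a-5p and miR-10b-5p and by no other listed miRNA. The seed ACCCGUA was held by miR-99a-5p, miR-99b-5p and miR-100-5p alone. The seed CCCUGAG was held by miR-125a-5p, miR-125b-5p and miR-4319, which had only 22 counts in normoxia and 54 in hypoxia. Each of the 3p members had a seed found in no other listed miRNA. Full-length distances, the number of substitutions, insertions and deletions between mature sequences, ran from 1 to 4 between 5p members of the same seed, from 3 to 6 between miR-10 and miR-99/100, and from 6 to 12 between miR-125 and the rest. miR-10a-5p and miR-100-5p shared an unbroken run of 11 bases, at positions 7 to 17 of the first and 6 to 16 of the second. miR-10a-5p and miR-10b-5p were 1 edit apart, as were miR-100-5p and miR-99a-5p, which differ by A16U (the miR-100-5p base first, positions counted from 1 at the 5′-end). miR-99b-5p differs from miR-100-5p by A1C, U11A, A16C and U21C. The separate counts of the pairs 1 edit apart are uncertain where reads of the abundant twin carried an error.

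The genes fall at 2 kinds of place. In GRCh38 MIR10A spans 48579838 to 48579947 of chromosome 17, minus strand, and overlaps a HOXB4 exon and a HOXB3 intron, both transcribed in the same direction. MIR10B spans 176150303 to 176150412 of chromosome 2, plus strand, in an intron of HOXD3 and 810 bases from HOXD4. On chromosome 19, MIR99B (51692612 to 51692681), MIRLET7E (51692786 to 51692864) and MIR125A (51693254 to 51693339) follow each other on the plus strand in introns of SPACA6, with 104 and 389 bases between them, and are overlapped by exons of the opposite-strand gene SPACA6P-AS. On chromosome 11, MIR100 (122152229 to 122152308), MIRLET7A2 (122146522 to 122146593) and MIR125B1 (122099757 to 122099844) lie on the minus strand in introns of MIR100HG, with 5635 and 46677 bases between them. On chromosome 21, MIR99A (16539089 to 16539169), MIRLET7C (16539828 to 16539911) and the mature products of MIR125B2 (16590253 to 16590311) lie on the plus strand in introns of MIR99AHG. miR-125b-5p is the same from both of its genes, so its count cannot be divided between chromosomes 11 and 21. The sources used here do not say whether a read that fits several genes was counted once or split, which bears on the level, order and arm ratio of miR-125b-5p and on let-7a-5p.

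The table held 4514818 counts on mature miRNAs in normoxia and 8600160 in hypoxia. Levels are CPM, counts scaled to these totals, so a level is a share that depends on all other miRNAs, and fewer cells with a miRNA and less of it per cell cannot be told apart. miR-21-5p alone had a share of 72.2% under normoxia and 68.4% under hypoxia. As a check of the labels, miR-210, a known hypoxia-induced miRNA, stood at 954 CPM in normoxia and 2657 CPM in hypoxia. All 6 epithelial marker miRNAs (the miR-200 family and miR-205-5p) were listed, with a summed level of 1168 CPM in normoxia and 1362 CPM in hypoxia. Most of that sum was miR-200b-3p, with 3972 counts in normoxia and 9327 in hypoxia. miR-205-5p had only 12 and 15 counts, fewer than the blood marker miR-451a with 82 and 191. Of 9 blood, muscle and liver markers 6 were listed, with a summed level of 20.6 and 26.1 CPM.

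Together the 10 members took 2.06% of mature counts in normoxia (exact Clopper-Pearson 95% interval 2.05% to 2.07%) and 2.40% in hypoxia (2.39% to 2.41%). Members of the clusters shared with let-7 made up nearly all of this, at 89.6% of the members' counts in normoxia and 90.5% in hypoxia. The HOX-locus members made up 10.4% and 9.46%. By seed, miR-99/100 guides gave 49.0% of the members' counts in normoxia and 49.3% in hypoxia, miR-125 guides 40.3% and 41.0%, and miR-10 guides 10.3% and 9.41%. The 3p members together gave 0.422% and 0.276%.

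miR-100-5p was the most abundant member, at 6867 CPM in normoxia (interval 6791 to 6943) and 8314 CPM in hypoxia (8253 to 8375), places 9 and 8 among all listed miRNAs. miR-125a-5p followed with 5785 CPM (5715 to 5855) and 6722 CPM (6668 to 6777). miR-125b-5p reached 2502 CPM (2456 to 2549) and 3103 CPM (3066 to 3141). These were the 3 leading members in both libraries, and all belong to clusters shared with let-7.

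miR-99b-5p stood at 2208 CPM in normoxia (2165 to 2251) and 2502 CPM in hypoxia (2469 to 2536). The leading HOX-locus member, miR-10a-5p, lay just under it at 2103 CPM (2061 to 2146) and 2240 CPM (2208 to 2271). miR-99a-5p was the lowest of the abundant guides at 1007 CPM (978 to 1037) and 1001 CPM (980 to 1022). It had 22.5 times the count of the next member in normoxia and 34.7 times in hypoxia, so the members fall into 6 abundant guides and 4 scarce products.

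The scarce products were the 3p members and miR-10b-5p. miR-100-3p had 202 counts in normoxia (44.7 CPM, interval 38.8 to 51.4) and 248 in hypoxia (28.8 CPM, 25.4 to 32.7). miR-125a-3p had 127 (28.1 CPM, 23.5 to 33.5) and 215 (25 CPM, 21.8 to 28.6). miR-10b-5p, although a 5p product with the same seed as miR-10a-5p, had only 102 (22.6 CPM, 18.4 to 27.4) and 137 (15.9 CPM, 13.4 to 18.8), and miR-10a-3p 63 (14.0 CPM, 10.7 to 17.9) and 106 (12.3 CPM, 10.1 to 14.9). The order of the 10 was the same in both libraries. Neighbours whose ratio did not differ from 1 beyond counting error were miR-125a-3p and miR-10b-5p in normoxia (1.25, 0.952 to 1.63), and in hypoxia miR-100-3p and miR-125a-3p (1.15, 0.957 to 1.39) and miR-10b-5p and miR-10a-3p (1.29, 0.996 to 1.68).

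**Figure D1:**
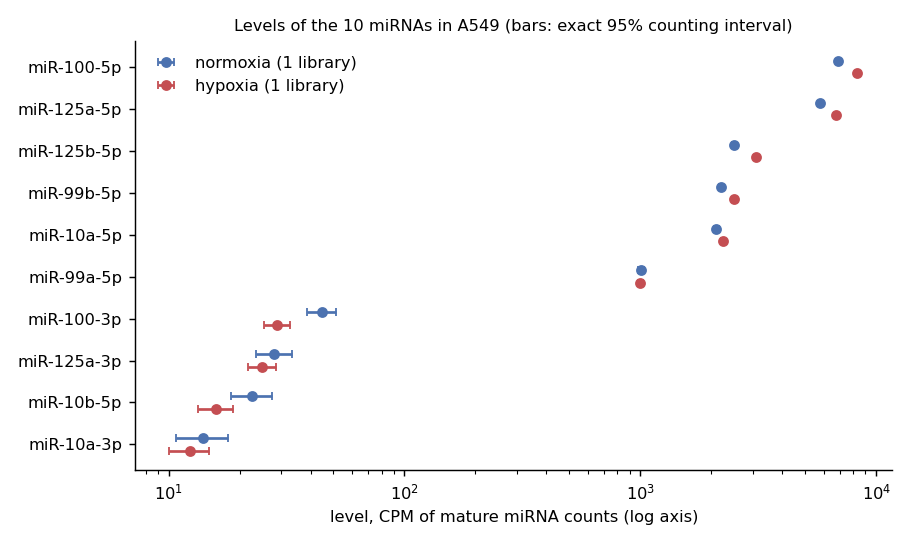
Level of each member in CPM of mature miRNA counts (log axis), 1 point per library, with exact 95% counting intervals. 6 guides sit between 1001 and 8314 CPM in both libraries, and the 3p members and miR-10b-5p sit between 12.3 and 44.7 CPM.

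Within the miR-10 seed group almost the whole count was miR-10a-5p, and miR-10b-5p gave 1.06% in normoxia (0.868% to 1.29%) and 0.706% in hypoxia (0.593% to 0.834%). How far errors in reads of miR-10a-5p enter this small share was not tested. Within the miR-99/100 seed group miR-100-5p gave 68.1% and 70.4%, miR-99b-5p 21.9% and 21.2%, and miR-99a-5p 9.99% and 8.47%. Within the miR-125 pair miR-125a-5p gave 69.8% and 68.4%.

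The question put by the design is how these miRNAs differ between normoxia and hypoxia. The differences were small. The abundant guides from the let-7 clusters were somewhat higher in hypoxia as a share of mature miRNAs, except miR-99a-5p, although for miR-99b-5p the sign turned under 2 of 6 scalings, while miR-10b-5p and miR-100-3p were lower. None of the 10 members, all of which had a mean level above 8 CPM, passed a rule of size of at least 0.9 on the log2 scale in either direction. Of the 338 miRNAs above 8 CPM, 13 passed it as higher (3.85%) and 11 as lower (3.25%), so few miRNAs of any kind did. That split is sensitive to scaling, with 54.2% of those past the rule higher here, 37.5% (9 higher, 15 lower) after TMM scaling and 25% (6 higher, 18 lower) when miR-21-5p was left out of the totals.

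The counting interval of the log2 ratio lay wholly above 0 for 5 members, against 37.0% of all 338 miRNAs, and wholly below 0 for 2 members, against 26.6%. This balance depends on the scaling. It was 4 above and 3 below after TMM scaling, against 29.3% and 35.5% of the 338, and 3 above and 5 below without miR-21-5p in the totals, against 24.6% and 39.9%. miR-100-5p, miR-125a-5p and miR-125b-5p were above 0, and miR-100-3p and miR-10b-5p below 0, under all 6 scalings. The median log2 ratio of the 10 was 0.041, beside 0.079 over the 338, whose SD was 0.525. The members ran from -0.63 for miR-100-3p, which was above only 6.80% of the 338, to 0.31 for miR-125b-5p, which was above 67.8%. miR-100-3p and miR-10b-5p (above 11.2%) lay below the first quartile of -0.22, and the other 8 lay between the quartiles.

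miR-125b-5p rested on 11296 counts in normoxia and 26688 in hypoxia, and its log2 ratio of 0.31 (0.28 to 0.34) is a 1.24-fold difference. miR-100-5p rested on 31001 and 71501 counts and differed by 1.21-fold (log2 0.28, 0.26 to 0.30). miR-125a-5p rested on 26117 and 57814 counts and differed by 1.16-fold (log2 0.22, 0.20 to 0.24). These were the 3 members with a positive ratio under all 6 scalings computed, down to 0.12, 0.080 and 0.021 when the 10 most abundant miRNAs of either library, 11 in all, were left out of the totals. Those 11 include miR-100-5p itself, whose count then stays in its ratio but not in the totals.

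miR-99b-5p, with 9967 and 21521 counts, had a log2 ratio of 0.18 (0.15 to 0.22), which fell just below 0 (-0.015) under that same scaling. miR-10a-5p, with 9494 and 19261 counts, had 0.091 (0.055 to 0.13) and turned to -0.024 after TMM scaling, and it was below 0 under 4 of the 6 scalings. miR-99a-5p, with 4548 and 8609 counts, was at -0.0091 (-0.061 to 0.043), but its interval lay wholly below 0 under the 5 other scalings, with values down to -0.20. TMM scaling moved every log2 ratio by -0.11, and the median of the 338 miRNAs from 0.079 to -0.036. Relative to that median, the order of the members stays as given.

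Among the scarce products, miR-100-3p had a log2 ratio of -0.63 (-0.91 to -0.36) and miR-10b-5p of -0.50 (-0.88 to -0.12), and both were negative under all 6 scalings. miR-10a-3p was at -0.18 (-0.64 to 0.29) and miR-125a-3p at -0.17 (-0.49 to 0.16), and at these counts no difference was detectable for either, except that the interval of miR-125a-3p lay below 0 without miR-21-5p, or without the 10 most abundant miRNAs, in the totals.

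**Figure D2:**
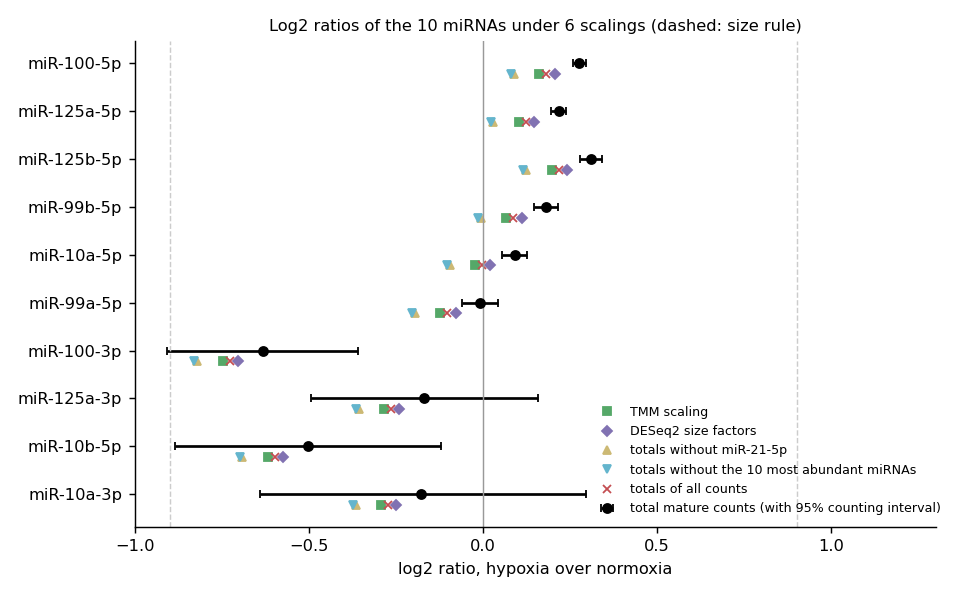
Log2 ratio of hypoxia over normoxia for each member. Black points are scaled to total mature counts with 95% counting intervals, coloured marks just below them are the 5 other scalings, and dashed lines are the rule of size at 0.9. miR-100-5p, miR-125a-5p and miR-125b-5p stay above 0 under each scaling, and miR-10a-5p and miR-99b-5p cross it.

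**Figure D3:**
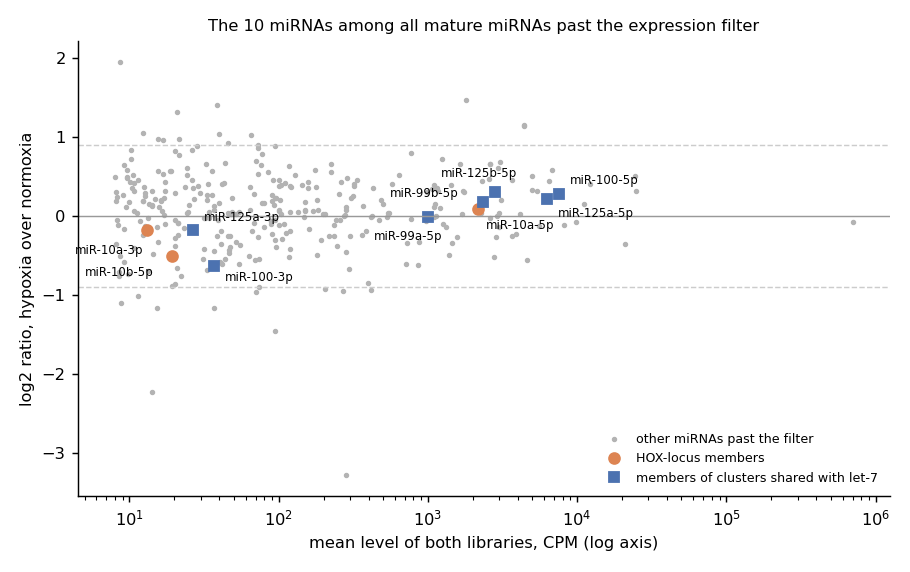
Log2 ratio against mean level (CPM, log axis) for the 338 miRNAs above 8 CPM, with the HOX-locus members as circles and the members of let-7 clusters as squares. All 10 members lie between -0.63 and 0.31, inside the dashed rule of size.

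The HOX-locus members and the members of the let-7 clusters were then compared with each other, which does not depend on the scaling because library totals cancel. The HOX-locus members together stood at 0.214% of mature counts in normoxia and 0.227% in hypoxia (log2 ratio 0.084, 0.049 to 0.12), a ratio that turned to -0.030 after TMM scaling. The let-7-cluster members stood at 1.84% and 2.17% (log2 ratio 0.23, 0.22 to 0.25). That ratio fell to 0.12 after TMM scaling and to 0.039 without the 10 most abundant miRNAs in the totals. The difference between the 2 groups was -0.15 on the log2 scale (exact conditional 95% interval -0.19 to -0.11), a larger difference than counting error between these libraries, with no replicate check of the conditions. miR-10a-5p gave 98.3% of the HOX-locus counts in normoxia and 98.8% in hypoxia. This comparison is therefore close to a comparison of that single miRNA with the rest. On the other side, miR-100-5p gave 37.2% of the let-7-cluster counts in normoxia and miR-125a-5p 31.4%. The let-7-cluster members did not move alike. miR-99b-5p, miR-100-5p, miR-125a-5p and miR-125b-5p had log2 ratios above that of miR-10a-5p (0.091). miR-99a-5p (-0.0091), miR-125a-3p (-0.17) and miR-100-3p (-0.63) had lower ones. Against miR-100-5p, miR-10a-5p differed by -0.19 (-0.23 to -0.14), and by -0.16 (-0.20 to -0.12) when the pairs 1 edit apart were summed on each side.

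Guides from the same cluster were set side by side with the let-7 products between them. In the chromosome 19 cluster, miR-99b-5p and miR-125a-5p changed by amounts that did not differ beyond counting error (-0.036, interval -0.076 to 0.0045). let-7e-5p, their neighbour, had 4250 and 10253 counts and a log2 ratio of 0.34 (0.29 to 0.39), which was 0.12 above miR-125a-5p (0.068 to 0.18) and 0.16 above miR-99b-5p (0.098 to 0.22). In the chromosome 21 cluster, let-7c-5p (669 and 1262 counts) had a log2 ratio of -0.014 (-0.15 to 0.12), next to -0.0091 for miR-99a-5p, and their difference was -0.0050 (-0.15 to 0.14). In the chromosome 11 cluster, miR-125b-5p and miR-100-5p differed by 0.035 (-0.0025 to 0.072), with the reservation that miR-125b-5p also comes from chromosome 21. let-7a-5p, which is made from other genes as well, was at 0.033 (0.0071 to 0.058), 0.24 below miR-100-5p. Its ratio was below 0 under all the other scalings, which shift every log2 ratio by -0.070 to -0.20.

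Paralogs from different clusters were compared in the same way. miR-99a-5p lay 0.29 below miR-100-5p on the log2 scale (difference -0.29, -0.34 to -0.23), although these 2 are 1 base apart. miR-99b-5p differed from miR-100-5p by -0.095 (-0.13 to -0.056), and miR-125a-5p from miR-125b-5p by -0.094 (-0.13 to -0.056). miR-10b-5p differed from miR-10a-5p by -0.59 (-0.98 to -0.21). All these intervals cover counting error between 2 libraries only.

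The arms of each hairpin were very unequal. In normoxia there were 151 counts of miR-10a-5p per count of miR-10a-3p (118 to 196), 153 for miR-100 (134 to 177) and 206 for miR-125a (173 to 247). In hypoxia these ratios were 182 (150 to 222), 288 (255 to 328) and 269 (235 to 309). The 5p arm thus dominated all 3 hairpins in both libraries. The change in the ratio from normoxia to hypoxia was 0.91 on the log2 scale for miR-100 (0.63 to 1.18) and 0.39 for miR-125a (0.058 to 0.71). For miR-10a it was 0.27 (-0.21 to 0.73), which counting error could give.

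Over the 73 hairpins with both arms above 8 CPM, the 5p arm gained on the 3p arm in 34, or 46.6%, with a median of -0.11. The 3 hairpins above all lay on the positive side, and the value of miR-100 was above that of 93.2% of hairpins. The arms of the other member hairpins did not move alike. miR-125b-5p gained on its 3p arms, summed over both hairpins, by 0.92 (0.58 to 1.25), whereas miR-99b-5p changed against miR-99b-3p by -0.39 (-0.86 to 0.054). miR-99a-3p, with 3 counts in normoxia and 15 in hypoxia, gave a change of -1.40 (-3.83 to 0.42), too wide to read.

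The 3p arms also tell the miR-125b genes apart. miR-125b-1-3p, from chromosome 11, was counted 112 times in the normoxic and 116 times in the hypoxic library (log2 ratio -0.88, -1.27 to -0.49). miR-125b-2-3p, from chromosome 21, was counted 23 and 53 times (log2 ratio 0.27, -0.46 to 1.05). Its mean level of 5.63 CPM lay below the filter of 8 CPM. Between the libraries the first differed from the second by -1.15 on the log2 scale (interval -2.02 to -0.31). The chromosome 11 arm was 4.87 times the chromosome 21 arm in normoxia and 2.19 times in hypoxia, and miR-100-3p of the same chromosome 11 cluster was also lower in hypoxia, while let-7a-2-3p of that cluster (57 and 135 counts) was at 0.31 (-0.14 to 0.79). The 5p products miR-100-5p and miR-125b-5p, the latter also from chromosome 21, were higher in hypoxia, at 0.28 and 0.31.

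**Figure D4:**
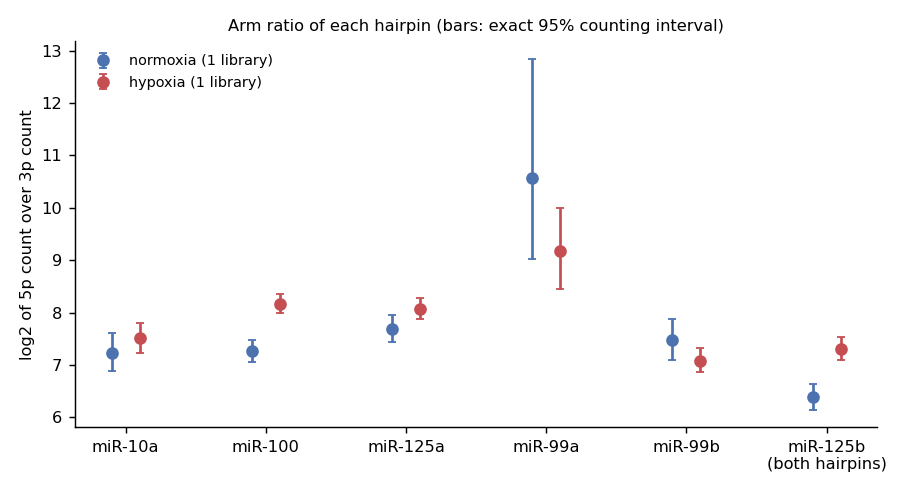
Log2 of the 5p count over the 3p count of each hairpin in each library, with exact 95% counting intervals. The first 3 hairpins have both arms among the members. The ratio is higher in hypoxia beyond counting error for miR-100, miR-125a and miR-125b. The points are also higher for miR-10a and lower for miR-99a and miR-99b, but the intervals of these changes include 0.

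Of 11 neighbouring products looked up beside the members, 9 were listed and 7 of these were above 8 CPM. miR-99b-3p (56 and 159 counts, log2 ratio 0.58, 0.13 to 1.04) and let-7e-3p (100 and 261 counts, 0.45, 0.12 to 0.80), both from chromosome 19, were higher in hypoxia beyond counting error, but their intervals crossed 0 without miR-21-5p, or without the 10 most abundant miRNAs, in the totals. The chromosome 19 cluster had 5 of its 6 listed products with a positive log2 ratio, beside 59.5% of the 338 miRNAs, miR-125a-3p being the exception, and miR-99b-5p lost its sign under 2 of the 6 scalings. Among the 16 other miRNAs within 1 log2 unit of the mean level of miR-100-5p, the nearest in log2 ratio were miR-181a-5p (0.32), miR-26a-5p (0.33) and miR-125a-5p (0.22). This likeness rests on 2 libraries and the ratio alone.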

How the data were processed

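Small RNA libraries of total RNA from A549 cells were made with a ligation kit for the SOLiD platform, with 1 library for normoxia and 1 for hypoxia. Raw counts per feature, not normalized, were deposited by the authors. For SOLiD data the study's methods name LifeScope with its small RNA pipeline and miRBase annotation, and the submitters' processing notes name hg19. Deposited mature sequences carry 1 flanking base at each end: trimmed, 653 of the 687 named in the RefSeq table were identical to it. Genomic positions are from RefSeq GRCh38.p14, with GENCODE annotation on the same assembly, and hg19 coordinates served only to find the hairpin features.

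Counts were scaled to all mature miRNA counts without a prior count, and a count of 0 was raised to a floor of 3 for ratios, which touched none of the 338 miRNAs above 8 CPM. Shares carry exact binomial intervals, ratios exact conditional binomial intervals and paired contrasts the conditional interval of Fisher's odds ratio, all at 95%. The rule of size was a log2 ratio of at least 0.9 with a mean level above 8 CPM. Alternatives were TMM factors (edgeR version 4.0.16), DESeq2 version 1.42.0 size factors, other totals, denominators, filters and thresholds, in R version 4.3.3 and Python version 3.11.15 with scipy version 1.17.1. The size rule and the intervals were run on simulated counts that held counting error only. For the rule of size, the planted changes were larger than the rule. These runs therefore cannot show how either behaves with spread between replicates. Members and lists, including the 11 neighbouring products, the marker miRNAs and the rule for the miRNAs most like miR-100-5p, were chosen with earlier results of these data known. The arms over all hairpins, the miR-125b 3p arms and the count of chromosome 19 products were added after values were seen.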

Additional observations from a re-analysis of the deposited data

Results flagged for a closer look

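The table also counts, as features of their own, reads on hairpin precursors that were used in no comparison above, and there is no control library for them. All exceeded 3 counts, the upper limit for a feature with none. The MIR125A hairpin had 111 counts in normoxia and 212 in hypoxia, about as many as miR-125a-3p. The other hairpins had fewer, with 8 and 20 counts for MIR10A, 15 and 33 for MIR100, 6 and 6 for MIR125B1, 10 and 13 for MIR125B2, 22 and 33 for MIR99B, and 4 and 7 for MIR99A. The sources used here do not give how reads were divided between hairpin and mature features.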

How the results depend on the processing

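No paired analysis was possible because there is only 1 library of normoxia and 1 of hypoxia, so none could be left out either. The log2 ratio of all 10 members was 0.22. It was 0.11 after TMM scaling, 0.15 with DESeq2 size factors, 0.032 with totals without miR-21-5p, 0.024 with totals without the 10 most abundant of either library (miR-100-5p among them), 0.13 with totals of all counts, and 0.19 with miR-100-5p left out of the members. In the same order, the HOX-locus ratio of 0.084 became -0.030, 0.014, -0.10, -0.11 and -0.010, and -0.37 without miR-10a-5p. The let-7-cluster ratio of 0.23 became 0.12, 0.16, 0.047, 0.039 and 0.14, and 0.21 without miR-100-5p. The sign of the HOX-locus ratio is thus not fixed, while the contrast between the groups does not depend on scaling. Of the 10 members, 8 kept their sign under these scalings, and miR-10a-5p and miR-99b-5p did not. With all counts as the denominator the members' share was 1.44% in normoxia and 1.57% in hypoxia, the HOX-locus share 0.150% and 0.149%, and the let-7-cluster share 1.29% and 1.42%, by construction lower. The 13 higher and 11 lower miRNAs past the rule of size became 6 and 18 without miR-21-5p in the totals, 6 and 19 without the 10 most abundant, and 87 and 142 with no filter on the 859 miRNAs. The 142 cannot be read as a count of miRNAs lower in hypoxia, because 25 of them were seen only in hypoxia and owe their sign to the floor of 3 counts put in place of a 0. With the 71 miRNAs that had a 0 left out, a setting added after the data were seen, the counts were 85 and 110. With a mean of at least 20 CPM, and with a threshold of 1, 9 were higher and 7 lower. No member passed the rule under any of these. In a comparison added after the data were seen, the 5 members with a counting interval above 0 and the 2 below became 3 and 5, both without miR-21-5p in the totals and without the 10 most abundant, and 4 and 3 under the remaining scalings. Among the 338 miRNAs, the shares above and below 0 were 24.6% and 39.9% without miR-21-5p and 24.6% and 40.2% without the 10 most abundant. They were 29.3% and 35.5% after TMM scaling, 31.4% and 31.7% with DESeq2 size factors, and 30.2% and 33.7% with totals of all counts. Depth limits the 3p members and miR-10b-5p, which had 63 to 248 counts.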
